A study of Mus musculus with 37 samples.

Results

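Meiotic maturation takes a fully grown oocyte (FGO), arrested in prophase with its germinal vesicle, to an egg arrested at metaphase II (MII). It was described here in oocytes that lack BAP1, the ubiquitin hydrolase that removes ubiquitin from histone H2A in the Polycomb repressive deubiquitinase complex. The comparison set the 3 libraries of knockout MII eggs against the 3 libraries of knockout FGO, which are 6 of the 37 libraries of the study. It covered the 12016 genes, of 55401 in the deposited table, that reached 1 FPKM in at least 2 of the 10 oocyte and egg libraries. FPKM are fragments per kilobase of gene, scaled to the depth of the library.

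Knockout females carried the Bap1 allele flanked by loxP sites on both chromosomes together with Gdf9-iCre, a recombinase driven by the promoter of an oocyte growth factor. Control females carried the same floxed allele without Gdf9-iCre, and gave 2 FGO and 2 MII libraries. The floxed allele is thus shared by all groups, and its deletion follows the activity of the Gdf9 promoter in growing oocytes. The labels give neither the age of the females nor the number of oocytes in a library. They do not say that the libraries of a group came from separate females, so the p-values measure only the spread between these libraries, which may be technical. Total RNA was sheared, reverse transcribed with random primers and made into stranded libraries, a method that does not select RNA by its poly(A) tail.

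Transcription is silent from the end of oocyte growth until after fertilization, so maturation runs on stored RNA. Some stored messages are held dormant with short poly(A) tails. At resumption such tails can be lengthened and the messages translated, through cytoplasmic polyadenylation elements (CPE) bound by CPEB1. Other stored messages are deadenylated and destroyed, with BTG4 and the CCR4-NOT complex among the factors known for this. Since total RNA is measured, a change of poly(A) tail alone is not what the values count. FPKM are shares of a library, so loss of an RNA and a gain of the others cannot be told apart from them, and neither can fewer cells and less RNA per cell.

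Bap1 measured 4.98, 3.76 and 4.49 FPKM in the knockout FGO and 4.92, 5.13 and 4.15 FPKM in the knockout MII eggs. The control libraries measured 16.3 and 29.2 FPKM in FGO and 29.9 and 28.5 FPKM in MII. Every knockout library was thus below every control library, and the residual Bap1 signal did not pass the test between the stages (log2 change 0.09 ± 0.18 SE, adjusted p = 0.794). Of 12 oocyte markers, Gdf9, Bmp15 and Zp2 among them, 0 were under 1 FPKM in all 6 knockout libraries. Of 23 markers of cumulus and granulosa cells, the follicle cells around the oocyte, 20 stayed under 1 FPKM in all 6 libraries and 7 were listed at 0, among them Ptx3, Tnfaip6, Amhr2 and Lhcgr. Their summed level was 17.5 to 19.8 FPKM in knockout FGO and 17.7 to 18.2 FPKM in knockout MII eggs, most of it from Nr5a2, and 24.98 to 29.4 FPKM in the control libraries. Some of these markers were lower in knockout MII eggs without overlap, all under 1 FPKM in FGO: Inha (0.285 to 0.968 FPKM in FGO, listed at 0 in MII), Inhba (0.396 to 0.874, then 0.00541 to 0.0107), Inhbb (0.345 to 0.544, then 0), Gja1 (0.488 to 0.722, then 0.0755 to 0.157) and Foxl2 (0.0108 to 0.0499, then 0). Nr5a2 went the other way without overlap (12.2 to 13.4 FPKM in FGO, 14.4 to 15.3 FPKM in MII eggs). Over all genes tested 15.3% lay lower and 18.5% higher without overlap, but only 3 of the 23 markers reached the limit for testing. The part of these markers in the changes described below was not tested. Of 11 blood and immune markers 7 were listed at 0, the globins among them, and C1qb alone passed 1 FPKM.

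Knockout FGO replicate 1 stood apart from the other libraries. The SD of its log2 deviations from the group mean was 0.26 over all genes tested, against 0.13 to 0.18 in the other 9. The 22 mitochondrial tRNA genes summed to 1855 FPKM there and to 537 and 466 FPKM in the other knockout FGO, and the small nucleolar and Cajal RNAs to 372 FPKM against 166 and 144 FPKM. The total counts and those of several gene lists are therefore given with and without it. Counts given only once include it.

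At a Benjamini-Hochberg adjusted p under 0.05 in limma, on log2(FPKM + 1), 539 genes (4.49% of those tested) were higher and 776 (6.46%) were lower in knockout MII eggs than in knockout FGO. In each of these 1315 genes the 3 FGO and 3 MII libraries did not overlap. Over all genes tested 18.5% lay higher and 15.3% lower without overlap. The falls were the larger changes: 209 genes (1.74%) fell at least 2-fold and 25 (0.208%) rose at least 2-fold, of which 19 are encoded by the mitochondrial genome. Most rises were small, with 92.8% of them under 1.5-fold against 42.0% of the falls. The median log2 change of all genes tested was 0.01. Without FGO replicate 1 the counts were 245 higher and 571 lower, and 767 of the genes called were called again. Leaving out knockout FGO replicate 3 gave 790 calls, and leaving out knockout MII replicate 1, 2 or 3 gave 659, 838 and 726.

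**Figure D1:**
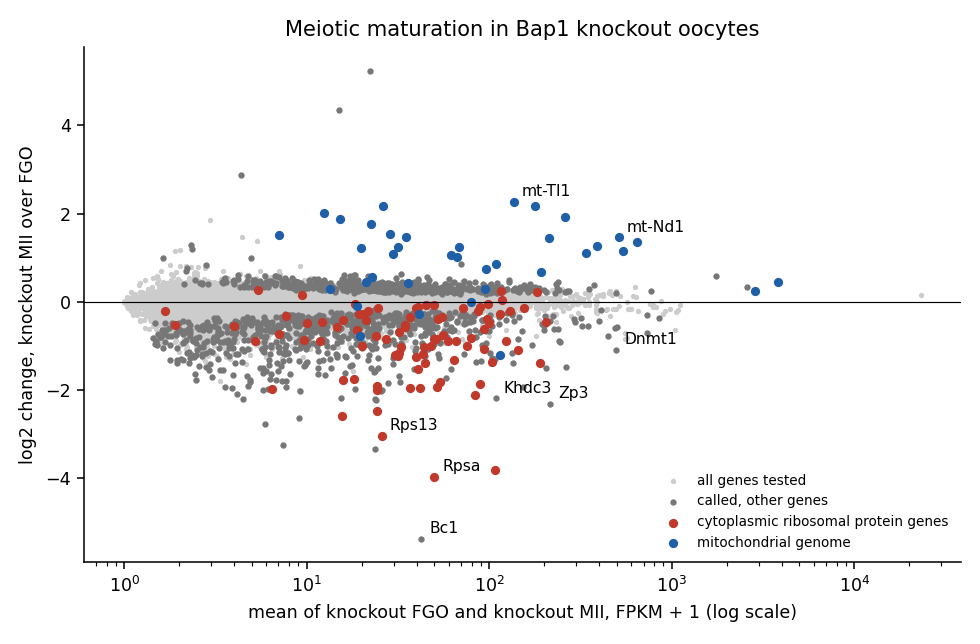
Log2 change between knockout MII eggs and FGO (y axis) against the mean FPKM + 1 of the 2 groups on a log scale (x axis), 1 point per gene tested. Cytoplasmic ribosomal protein genes (red) lie mostly below 0, with Rpsa at -3.97, and genes of the mitochondrial genome (blue) mostly above it, with mt-Tl1 at 2.27; dark grey points are the other genes with an adjusted p under 0.05.

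The messages of the cytoplasmic ribosome made up the group with the most falls. Of 88 ribosomal protein genes tested 58 fell and 0 rose (65.9% called, against 10.9% of all genes). Of these 33 fell at least 2-fold, and the median log2 change of the 88 was -0.77. Of the small subunit 23 of 35 genes fell (median -0.85) and of the large subunit 35 of 53 (median -0.75). Their summed level went from 6103, 5634 and 5590 FPKM in the knockout FGO to 3184, 3492 and 3429 FPKM in the MII eggs, with no overlap. Without FGO replicate 1, 52 fell and 2 rose.

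The size of the fall differed widely among ribosomal proteins. Rpsa, the laminin-receptor protein of the small subunit, measured 93.7, 90.8 and 94.3 FPKM in FGO and 4.71, 6.45 and 4.09 FPKM in MII eggs, a log2 change of -3.97 ± 0.14 (SE, adjusted p = 6.32e-07). Rps13 measured 47.0, 44.6 and 43.3 FPKM in FGO and 5.35, 4.05 and 4.52 FPKM in MII eggs (log2 change -3.03 ± 0.12 SE, adjusted p = 1e-06). Rps19 went from 25.8 ± 2.80 to 3.48 ± 0.247 FPKM (SD, n = 3 each) and Rps27 from 40.3 ± 7.56 to 6.35 ± 0.884. In these 4 genes of the small subunit the highest MII library was far below the lowest FGO library. At the other end, Rps24 measured 168 FPKM in FGO and 196.4 FPKM in MII eggs (log2 change 0.23, adjusted p = 0.058), Rpl4 106 and 125 FPKM (0.25, adjusted p = 0.066), and Rplp0 98.2 and 95.9 FPKM (-0.04, adjusted p = 0.80). Messages for parts of the same particle thus ranged from a log2 change of -3.97 to one of 0.28, the last not passing the test.

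Many ribosomal protein genes have processed pseudogenes, so reads can be split between copies. For the 88 genes a median of 24.2% of the 50-base words of their transcripts recurred in transcripts of other annotated genes (28.8% for Rpsa). Among the 47 genes with at most 25% of shared words 30 fell, with a median of -0.88. Of 66 named ribosomal protein pseudogenes 25 fell and 0 rose (37.9% called, against 10.9% of all genes). The falls were led by Rpsa-ps9 (12.4 to 0.345 FPKM), Rps13-ps1 (14.7 to 1.54 FPKM, 87.9% of words shared) and Rps27a-ps2 (6.40 to 0.524 FPKM, 99.5% shared). For these the source of the reads is uncertain. FGO replicate 1 was the highest FGO library in all 3, and without it 20 pseudogenes fell.

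Ribosomal protein messages are known for a terminal oligopyrimidine (TOP) tract, a C at the start of transcription followed by pyrimidines, through which their translation is regulated. Starts of 6 of them are shown to set genes that fell, with and without the tract, beside one that did not pass the test. The windows run 5′ to 3′ from 20 bases before to 20 bases after the RefSeq start (GRCm38.p6), and capitals mark a C followed by at least 5 C or T whose C lies within 10 bases of the start.
Rpsa, chr9:120127746-120127785, plus strand: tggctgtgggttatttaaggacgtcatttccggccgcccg
Rps13, chr7:116334171-116334210, minus strand: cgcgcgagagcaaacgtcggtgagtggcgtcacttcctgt
Rps27, chr3:90213629-90213668, minus strand: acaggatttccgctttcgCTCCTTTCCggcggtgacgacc
Rplp2, chr7:141447631-141447670, plus strand: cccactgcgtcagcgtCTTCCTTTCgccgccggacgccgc
Rpl38, chr11:114668560-114668599, plus strand: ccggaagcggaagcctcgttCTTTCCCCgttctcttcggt
Rps24, chr14:24490658-24490697, plus strand: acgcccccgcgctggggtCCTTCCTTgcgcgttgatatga
The tract was found in Rps27, Rplp2 (log2 change -2.12) and Rpl38 (-2.00), which fell, and also in Rps24, which did not pass the test. Rps24 has another RefSeq start, within 10 bases of which it was not found, and Rps19 (log2 change -2.58) held it at 1 of 3 starts. Under the limit of 10 bases it was not found in Rpsa and Rps13, among the genes with the largest falls. The Rps13 window does hold a C followed by 5 pyrimidines near its end, but that C lies beyond the limit.

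RefSeq starts were matched for 64 of the 88 ribosomal protein genes, and 36 of them (56.2%) held the tract at 1 start or more, against 22.5% of all 16801 protein-coding genes with a start. Within the ribosomal proteins 24 of 36 genes with the tract and 15 of 28 without it fell, with medians of -0.72 and -0.58. Among all genes that fell, outside the ribosomal proteins, 22.8% held it.

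Bc1, a non-coding RNA of 168 bases on chromosome 7 known as a repressor of translation in neurons, measured 76.9, 82.6 and 85.9 FPKM in FGO and 1.64, 1.03 and 0.494 FPKM in MII eggs. Its log2 change of -5.37 ± 0.32 (SE, adjusted p = 1.38e-05) was the lowest of the genes tested. Of the 50-base words of Bc1 31.1% recur in other annotated genes, and every MII library lay far below every FGO library.

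Other messages for housekeeping complexes fell with the ribosome, in smaller shares. Of 78 nuclear genes for oxidative phosphorylation 29 fell and 4 rose (42.3% called, against 10.9% of all genes, median -0.21). Ndufa11, an accessory subunit of complex I, measured 37.9, 39.6 and 38.1 FPKM in FGO and 5.93, 9.07 and 7.69 FPKM in MII eggs (log2 change -2.22 ± 0.14 SE, adjusted p = 1.66e-05). Atp5o, of the stalk of ATP synthase, went from 49.5 ± 4.41 to 13.2 ± 0.507 FPKM (SD, n = 3 each; 41.6% of words shared with other genes). Uqcr10, of complex III, rose from 12.2 ± 0.686 to 17.3 ± 0.562 FPKM (adjusted p = 0.0051). Of 42 proteasome genes 12 fell and 0 rose (28.6% called, median -0.14). Of the core subunits, Psmb6 went from 90.5 ± 8.68 to 31.0 ± 5.25 FPKM and Psmb1 from 42.1 ± 2.30 to 15.3 ± 2.09 FPKM. Of 76 mitochondrial ribosomal proteins 10 fell and 0 rose (13.2% called, against 10.9% of all genes), and their median of -0.05 lay near that of all genes. Mrpl52 (log2 change -1.49) and Mrpl39 (-0.98) fell most. Without FGO replicate 1 the falls numbered 27, 8 and 11 in these groups, in the order given.

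RNA of the mitochondrial genome rose. Of its 13 protein-coding genes 8 rose and 0 fell (61.5% called, median log2 change 1.11). Of its 24 tRNA and rRNA genes 13 rose and 0 fell (54.2% called, median 1.15). Of all genes tested 10.9% were called. The 13 protein-coding genes summed to 1875, 1735 and 2137 FPKM in knockout FGO and to 4404, 4129 and 4425 FPKM in MII eggs. mt-Nd1, a complex I subunit, measured 247, 251 and 324 FPKM in FGO and 723, 768 and 760 FPKM in MII eggs (log2 change 1.46 ± 0.11 SE, adjusted p = 5.14e-05). mt-Cytb, mt-Nd4 and mt-Nd2 rose by 1.35, 1.44 and 1.27 on the log2 scale. The libraries of these genes did not overlap between the stages. The mitochondrial messages that passed the test thus all rose, while of the nuclear ones for oxidative phosphorylation 29 fell and 4 rose.

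Leaving aside predicted and clone-named models, the 12 genes with the largest rises and at least 5 FPKM were all mitochondrial. The tRNA gene mt-Tl1, next to mt-Nd1 at chrM:2676-2750, measured 55.7, 38.3 and 44.8 FPKM in FGO and 209, 215 and 251 FPKM in MII eggs (log2 change 2.27 ± 0.14 SE, adjusted p = 1.66e-05). mt-Tq and mt-Ty, tRNA genes as well, followed at 2.18 each. The rRNA mt-Rnr1 went from 3229 ± 116 to 4441 ± 120 FPKM (adjusted p = 0.00856) and mt-Rnr2 from 2613 ± 231 to 3094 ± 169 FPKM (adjusted p = 0.103) (SD, n = 3 each); the rRNAs thus had smaller estimated changes than the messages named above. Without FGO replicate 1, in which mitochondrial tRNA was high, 19 of the 24 tRNA and rRNA genes and 10 of the 13 protein-coding genes rose. mt-Tg was the one farthest below 0 among the genes that did not pass (log2 change -1.20, adjusted p = 0.37).

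Some mitochondrial genes have a copy in the nuclear genome. Of the 5 protein-coding genes not called, mt-Co3, mt-Atp6, mt-Co2 and mt-Nd4l share 99.9%, 99.5%, 100% and 98.8% of their 50-base words with other annotated genes. The remaining gene not called shares at most 8.19%. Of the 8 called, mt-Nd3, mt-Nd4 and mt-Co1 share 98.0%, 62.2% and 51.1%. No mitochondrial tRNA shares any such word, mt-Tg included. The pseudogenes Gm28438, Gm28437 and Gm10222 on chromosome 1, which consist of such words (99.0% to 100%), rose from 0.143, 0.00847 and 0.402 FPKM to 42.1, 6.67 and 27.5 FPKM. Reads of the copies and of the mitochondrial genome cannot be told apart over these words, so the split between them is uncertain; these genes were singled out after their values were seen.

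**Figure D2:**
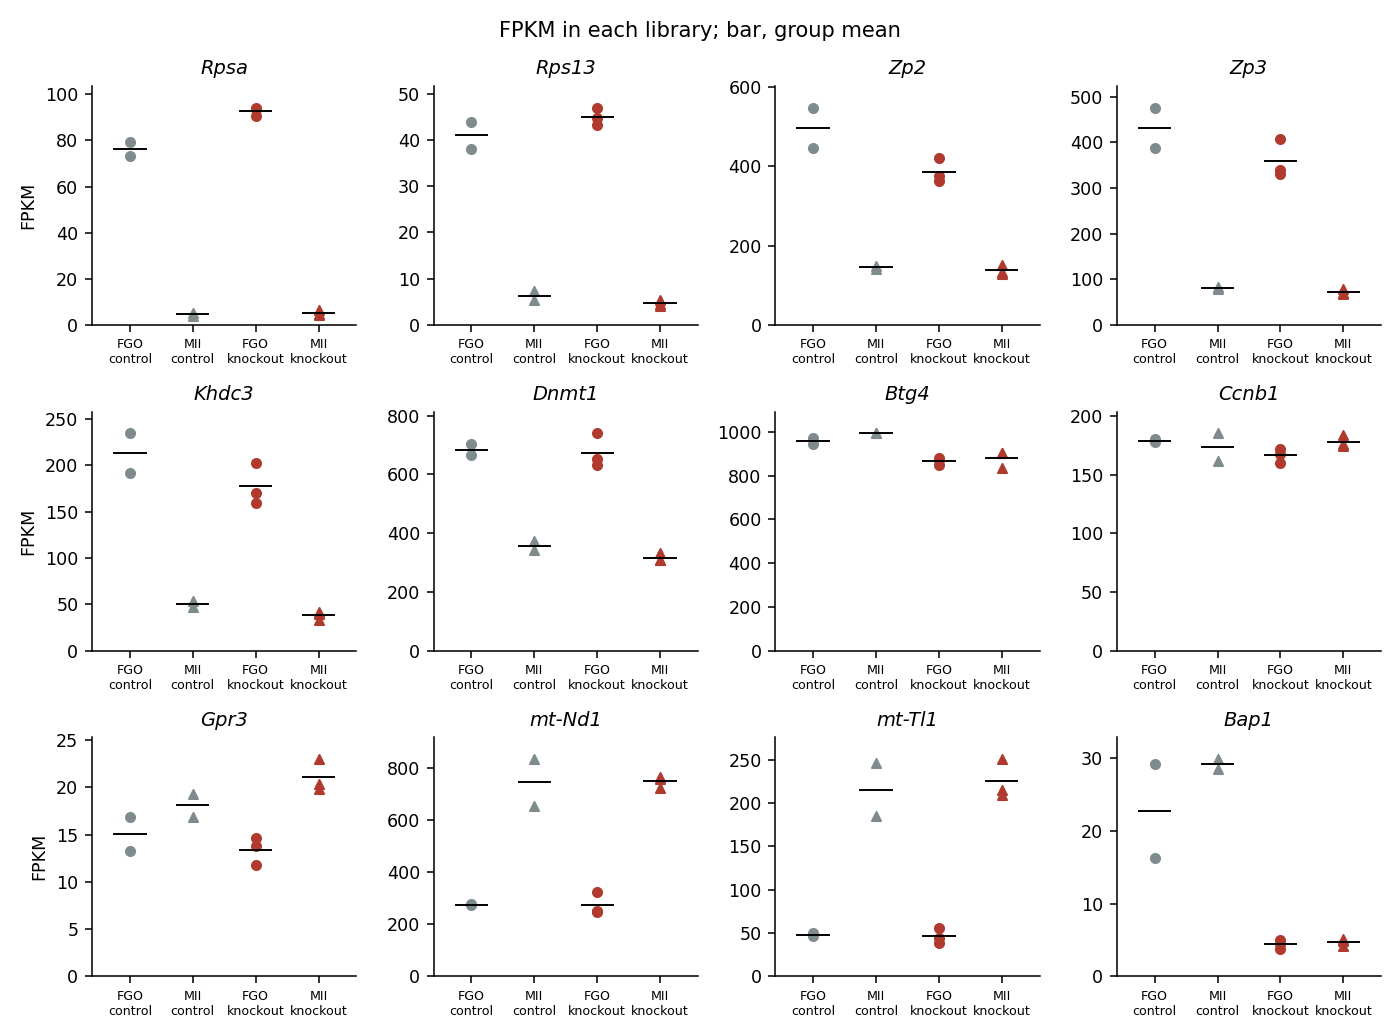
FPKM of 12 genes in each of the 10 libraries of FGO (circles) and MII eggs (triangles), control in grey and knockout in red; bars are group means. Knockout MII eggs lie below knockout FGO for Rpsa, Rps13, Zp2, Zp3, Khdc3 and Dnmt1 and above them for Gpr3, mt-Nd1 and mt-Tl1, while Btg4, Ccnb1 and Bap1 overlap or did not pass the test.

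Genes of the egg coat and of secreted oocyte factors differed in how far they fell. The zona pellucida is a coat of glycoproteins that binds sperm and is complete before maturation. Of the 13 genes tested 5 fell and 0 rose (38.5% called, against 10.9% of all genes). Zp3 measured 329, 406 and 340 FPKM in FGO and 67.6, 77.9 and 69.4 FPKM in MII eggs (log2 change -2.30 ± 0.10 SE, adjusted p = 2.22e-06), and Zp2 went from 387 ± 31.0 to 138 ± 11.6 FPKM (log2 change -1.48 ± 0.09 SE, adjusted p = 1.66e-05). Zp1 fell less, by 0.41 on the log2 scale, as did Astl, the protease that hardens the zona (-0.50), and Fgf8, a signal to cumulus cells (-0.63). The growth factors Gdf9 (1133 ± 57.4 to 972 ± 58.4 FPKM, adjusted p = 0.0742) and Bmp15 (372 ± 52.6 to 409 ± 42.3 FPKM, adjusted p = 0.44) did not pass the test. The falls of the Zp2 and Zp3 messages were thus the largest of the list.

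The subcortical maternal complex is an assembly under the egg membrane needed for early cleavage. Of 14 genes of it and of the NLRP family 6 fell and 1 rose. Khdc3 measured 170, 203 and 159 FPKM in FGO and 39.5, 41.2 and 33.5 FPKM in MII eggs (log2 change -2.19 ± 0.12 SE, adjusted p = 6.23e-06; 34.1% of words shared), and Nlrp2 went from 71.9 ± 0.671 to 31.1 ± 4.99 FPKM (adjusted p = 8.01e-05). Nlrp14 (-0.60), Tle6 (-0.54) and Nlrp5 (-0.55) fell by less, and Ooep (139 and 146 FPKM) and Padi6 (606 and 540 FPKM) did not pass. Zbed3, of the same complex, was higher in MII eggs (2290 ± 166 to 2879 ± 117 FPKM, adjusted p = 0.0253). Messages of this complex thus lay on both sides of 0. The call of Nlrp5 was lost without MII replicate 1 or 2 (adjusted p up to 0.0622), and that of Zbed3 without FGO replicate 1 or 3 or any 1 of the MII replicates (up to 0.0819).

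**Figure D3:**
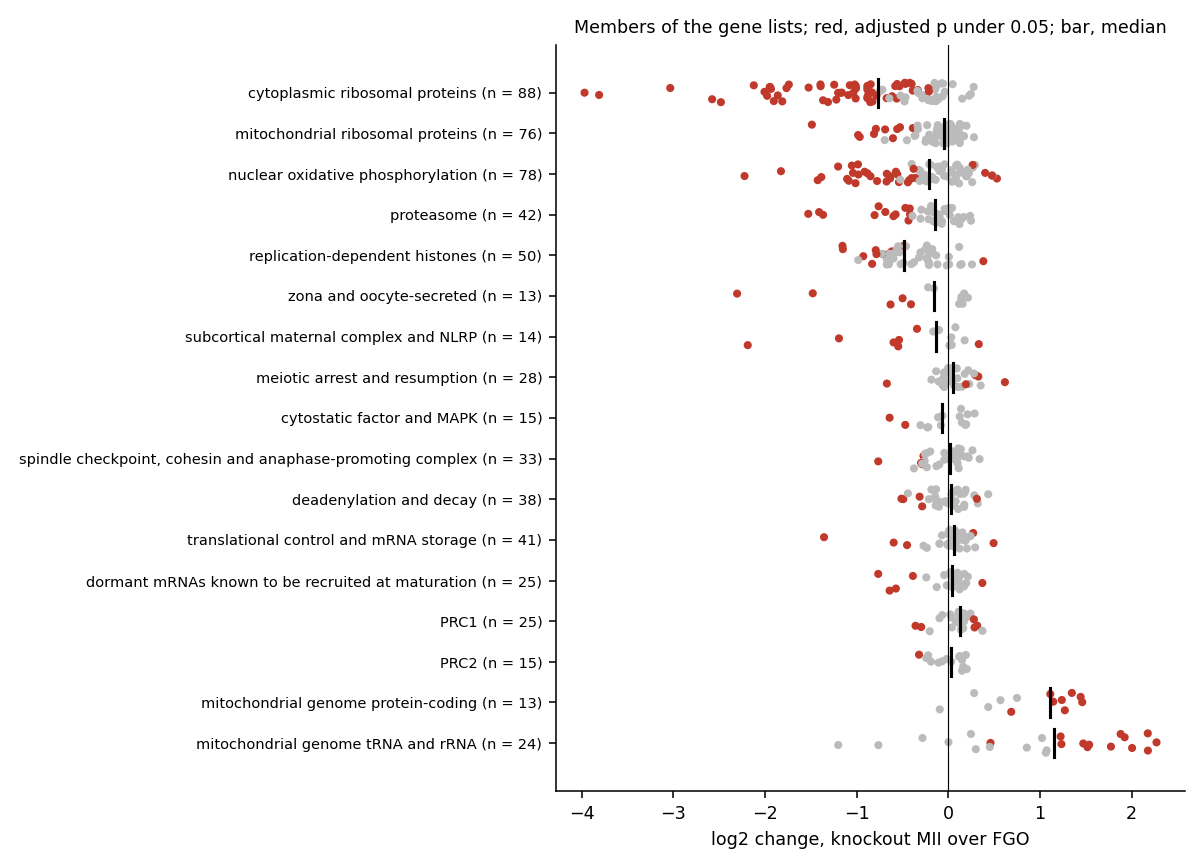
Log2 change between knockout MII eggs and knockout FGO for each tested member of 17 gene lists (x axis), 1 row per list; red points have an adjusted p under 0.05 and the bar is the median. The medians of the cytoplasmic ribosomal proteins (-0.77) and of the mitochondrial genome (1.11 and 1.15) lie farthest from 0, while the meiotic and Polycomb lists centre near it.

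Messages of the meiotic machinery were called in both directions, and are set against the 10.9% called of all genes. Of 28 genes of meiotic arrest and resumption 4 rose and 1 fell (17.9%), and 1 or 2 rose when any 1 library was left out. Gpr3, the receptor that keeps cyclic AMP high and so holds prophase arrest, measured 11.7, 14.7 and 13.8 FPKM in FGO and 20.4, 19.8 and 23 FPKM in MII eggs (log2 change 0.62 ± 0.11 SE, adjusted p = 0.00882). Ccna2 rose by 0.33 and Arpp19, an inhibitor of a phosphatase that opposes CDK1, fell by 0.67 on the log2 scale; the first call was lost without any 1 of the MII replicates (adjusted p up to 0.0808) and the second without FGO replicate 3, any 1 of the MII replicates or any 1 of the 4 control libraries (up to 0.105). Ccnb1, which encodes cyclin B1, measured 160, 168 and 172 FPKM in FGO and 175, 176 and 184 FPKM in MII eggs and did not pass (log2 change 0.10 ± 0.06 SE, adjusted p = 0.326).

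Of 15 genes of cytostatic factor and the MAPK pathway, which hold metaphase II arrest, 2 fell (13.3%, near the 10.9% of all genes). Mos, the kinase at the head of that pathway, measured 63.8, 83.2 and 70.8 FPKM in FGO and 43.7, 54.2 and 40.9 FPKM in MII eggs (log2 change -0.64 ± 0.11 SE, adjusted p = 0.008). Map2k2, which encodes a MAPK kinase, fell by 0.47. Of 33 genes of the spindle checkpoint, cohesin and the anaphase-promoting complex 4 fell and 0 rose (12.1%, also near that share). Bub1b, a checkpoint kinase, went from 559 ± 61.6 to 328 ± 27.9 FPKM (log2 change -0.76 ± 0.11 SE, adjusted p = 0.00188). Without FGO replicate 1 Bub1b was the 1 member of this list called. Of 35 spindle and actin genes 6 fell and 1 rose, a share called above the 10.9% of all genes. Prc1, a microtubule bundler, went from 229 ± 11.3 to 161 ± 5.92 FPKM and Pcnt, of the spindle poles, from 103 ± 2.26 to 77.1 ± 2.85 FPKM. The rise, of Spire1 (log2 change 0.29), was lost for 9 of the 10 libraries left out in turn (adjusted p up to 0.127). Such fits left 4 to 6 falls.

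Factors that control stored RNA were called in shares near the 10.9% of all genes. Of 41 genes of translational control 3 fell and 2 rose (12.2%). Cpeb1, whose protein binds the CPE and is itself destroyed during maturation, measured 105, 132 and 123 FPKM in FGO and 41.7, 47.3 and 49.6 FPKM in MII eggs (log2 change -1.36 ± 0.09 SE, adjusted p = 3.04e-05). Its relative Cpeb3 rose from 12.4 ± 1.04 to 17.8 ± 0.426 FPKM (adjusted p = 0.0117), and Pabpc1, a poly(A)-binding protein, fell from 5.47 ± 0.102 to 3.28 ± 0.129 FPKM (adjusted p = 0.0118). Of 38 genes of deadenylation and decay 4 fell and 1 rose (13.2%), and 1 to 3 fell when any 1 library was left out. Cnot10, a CCR4-NOT subunit, fell from 21.8 ± 1.89 to 15.0 ± 1.69 FPKM (adjusted p = 0.00927), while Cnot7, its catalytic deadenylase, measured 187 ± 16.1 and 192 ± 15.0 FPKM (adjusted p = 0.81). Btg4, which brings CCR4-NOT to maternal messages, measured 871, 849 and 882 FPKM in FGO and 905, 836 and 905 FPKM in MII eggs (log2 change 0.02 ± 0.06 SE, adjusted p = 0.831). Its libraries overlapped between the stages.

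The list of 25 messages known to be recruited for translation at maturation, Btg4 and Ccnb1 among them, held 4 that fell and 1 that rose. The share called was above the 10.9% of all genes. Leaving out 1 library at a time left 3 or 4 falls and 0 or 1 rises. Plat, tissue plasminogen activator, measured 694, 550 and 548 FPKM in FGO and 391.7, 432 and 375 FPKM in MII eggs (log2 change -0.57 ± 0.10 SE, adjusted p = 0.00603). Tcl1, an activator of AKT kinases, rose from 326 ± 29.98 to 421 ± 9.64 FPKM (adjusted p = 0.0153; 0.0522 without MII replicate 3). Wee2, an inhibitory kinase of CDK1 that acts at the exit from meiosis, measured 173 ± 9.01 and 186 ± 2.37 FPKM (adjusted p = 0.233), Orc6, of the origin recognition complex, 53.0 ± 4.11 and 56.9 ± 0.514 FPKM (adjusted p = 0.343), and Dcp1a, of the decapping complex, 281 ± 5.24 and 317 ± 13.9 FPKM (adjusted p = 0.0807). The other 20 genes of this list did not pass the test.

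CPE in the 3′ UTR of 6 of these genes and of Dnmt1 are shown because the element is the known signal for recruitment at maturation. Each window of 30 bases is from the longest annotated 3′ UTR of the gene (GENCODE M21, GRCm38), runs 5′ to 3′ in the sense of the message, and has the last TTTTAT or TTTTAAT of the final 100 bases in capitals.
Bub1b, chr2:118641553-118641582, plus strand: tttcactgtgtaTTTTATaataaaatagtt
Plat, chr8:22782745-22782774, plus strand: gtatatttataTTTTAATctattttagttt
Dnmt1, chr9:20907239-20907268, minus strand: gacttgatgtagTTTTATatgttgtaatat
Btg4, chr9:51119797-51119826, plus strand: agataaatccctTTTTATgtctttttaaaa
Wee2, chr6:40466784-40466813, plus strand: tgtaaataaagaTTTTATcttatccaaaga
Orc6, chr8:85308249-85308278, plus strand: tcaagcccaataaatgttatTTTTATatgc
Tcl1, chr12:105216797-105216826, minus strand: gaatgtgtgggaTTTTATgtggttctattt
Only genes that hold the element are shown, so its presence in them was set by the choice of genes. They include messages that fell (Bub1b, Plat, Dnmt1), messages that did not pass (Btg4, Wee2, Orc6) and Tcl1, which rose. In Orc6 the element lies 4 bases from the end of the annotated transcript.

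Over all protein-coding genes with an annotated 3′ UTR the CPE stood in 19.8% of those tested, in 19.8% of the 635 that fell and in 23.8% of the 478 that rose. With a window of 150 bases the shares were 25.3%, 23.1% and 30.8%. An AU-rich element, TATTTAT, occurred in 30.7% of the genes tested, 16.7% of those that fell and 33.9% of those that rose, and a Pumilio element, TGTANATA, in 27.3%, 16.5% and 28.7%. These elements were searched on the sense strand, the AU-rich and Pumilio elements over the whole 3′ UTR. Its median length was 1131 bases in the genes tested, 345 bases in those that fell and 1350 bases in those that rose, and the part of length in these shares was not tested.

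Genes that fell had short messages. Their median transcript was 1822 bases and their median coding sequence 960 bases, against 3027 and 1311 bases in all genes tested; without the ribosomal proteins the median transcript of the genes that fell was 2038.5 bases. Of the 2461 genes with the shortest transcripts (up to 1874 bases) 13.1% fell and 3.37% rose, and of the 2461 with the longest (from 4567 bases) 3.49% fell and 4.75% rose. Median changes of these sets were -0.04 and 0.06. The median level of the genes that fell, 16.8 FPKM in knockout FGO, was above the 7.00 FPKM of all genes tested. Whether length or level has a part in the calls was not tested.

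Messages for chromatin proteins were examined because BAP1 acts there. Dnmt1, the maintenance DNA methyltransferase, measured 739, 652 and 631 FPKM in FGO and 308, 310 and 332 FPKM in MII eggs (log2 change -1.09 ± 0.07 SE, adjusted p = 2.61e-05). Among 17 genes of DNA methylation and imprint protection (17.6% called, against 10.9% of all genes) it was the 1 that fell, and 2 rose, Setdb1 (0.25) and Zfp57 (0.24). There was 1 rise without FGO replicate 1; the call of Setdb1 was lost for 5 of the 10 libraries left out in turn and that of Zfp57 for 4 (adjusted p up to 0.0984). Ezh2, the methyltransferase of PRC2, measured 167 ± 0.485 and 165 ± 17.0 FPKM (adjusted p = 0.889). Of the 13 genes of the BAP1 complex 3 rose and 1 fell, of 25 genes of PRC1 3 rose and 2 fell, and of 15 genes of PRC2 0 rose and 1 fell, all by less than 0.40 on the log2 scale. The share called was 30.8% in the BAP1 complex and 6.67% in PRC2, against 10.9% of all genes. In PRC1 it lay between these shares and above 10.9%. Of the 10 calls only 1, the fall of Phc1 in PRC1, was kept without FGO replicate 1. The BAP1 complex and PRC2 then had 0. These 10 calls were not firm: leaving out 1 library at a time left 0 to 3 rises and 0 to 2 falls per list, and for Mbd6, Foxk2, Kdm1b, Pcgf6, Auts2, Phc1, L3mbtl2 and Jarid2 the call was lost for at least 3 of the 10 libraries, with an adjusted p up to 0.137 (L3mbtl2 without MII replicate 1).

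Histone messages of the replication-dependent kind end in a stem-loop and not in a poly(A) tail, and are kept in total RNA. Of 50 tested 10 fell and 1 rose (median -0.49), a share called above the 10.9% of all genes. The rise, of H3c7, was lost for 7 of the 10 libraries left out in turn, FGO replicate 1 among them (adjusted p up to 0.126). Without FGO replicate 1 or 2 or MII replicate 1 or 2 the falls numbered 5, without MII replicate 3 they numbered 6, and the median without FGO replicate 1 was -0.31. These genes are near-identical copies, H2bc15 sharing 86.4% of its words with other genes, and single members are uncertain. H2ax, a variant that marks DNA breaks, went from 52.6 ± 4.25 to 23.6 ± 0.964 FPKM (log2 change -1.12 ± 0.08 SE, adjusted p = 3.04e-05) and H2bc1, a testis and oocyte variant of H2B, from 121 ± 13.4 to 76.4 ± 4.43 FPKM (adjusted p = 0.00154). The linker histone H1f8 of the oocyte did not pass (1151 ± 55.7 and 1014 ± 19.5 FPKM, adjusted p = 0.0844).

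Outside the mitochondrial genome the 12 largest rises under the same conditions, picked out after their values were seen, were all under 2-fold. Besides Gpr3 they included H13, a signal peptide peptidase (36.2 ± 3.25 to 53.5 ± 1.07 FPKM, adjusted p = 0.000834), Egr1, a transcription factor of the immediate response to signals (4.70 ± 0.395 to 7.44 ± 0.188 FPKM, adjusted p = 0.00573), and Iqcf5 (3.72 ± 0.317 to 6.11 ± 0.669 FPKM, adjusted p = 0.00958). Rn7sk, the 7SK RNA that restrains transcription elongation, rose from 1405 ± 213 to 2077 ± 33.1 FPKM (adjusted p = 0.0112), with 68.1% of its words shared with other models. In each of these 5 genes every MII library lay above every FGO library, and no call was lost when 1 library was left out. Of the same 12 genes 6 did lose their call when 1 library was left out: Glis3 for 9 of the 10 libraries, Ube2d2a for 7, Gng5 for 6, Prr7 for 3, Ftl1 for 2 and Ino80d for 1 (knockout MII replicate 3, adjusted p = 0.0574).

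To ask whether maturation differed in the knockout, the same contrast was taken in control oocytes, whose 2 FGO and 2 MII libraries enter no knockout mean. In control 75 genes (0.624%) were higher and 432 (3.6%) lower in MII eggs, 4.22% in all. Of the 776 genes that fell in the knockout 343 also fell in control, 44.2% of the knockout list and 79.4% of the control list. Of the 539 that rose 42 also rose in control, 7.79% and 56.0% of the lists. No gene was called in opposite directions. Of the genes that fell in the knockout 95.1% had a negative change in control, and of those that rose 89.4% a positive one, where 50.2% and 49.8% of all genes tested did. Control had 2 libraries per stage against 3, so the lower counts there do not show a weaker change.

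The interaction contrast in limma, the knockout change minus the control change, passed an adjusted p of 0.05 for 0 of 12016 genes. The smallest adjusted p was 0.231, and 1080 genes (8.99%) had an unadjusted p under 0.05, 593 of them with a more positive change in the knockout and 487 with a more negative one. For genes with large changes the estimates stand side by side as follows. Rpsa changed by -3.97 and -3.82 in knockout and control, Zp3 by -2.30 and -2.39, Khdc3 by -2.19 and -2.07, Cpeb1 by -1.36 and -1.33 and mt-Nd1 by 1.46 and 1.42. The differences were -0.14 ± 0.22, 0.08 ± 0.16, -0.12 ± 0.19, -0.03 ± 0.15 and 0.04 ± 0.18 (SE). By median, the genes that fell in the knockout changed by -0.66 there and by -0.51 in control, and the genes that fell in control by -0.76 there and by -0.63 in the knockout, each list showing the larger change where it was chosen.

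**Figure D4:**
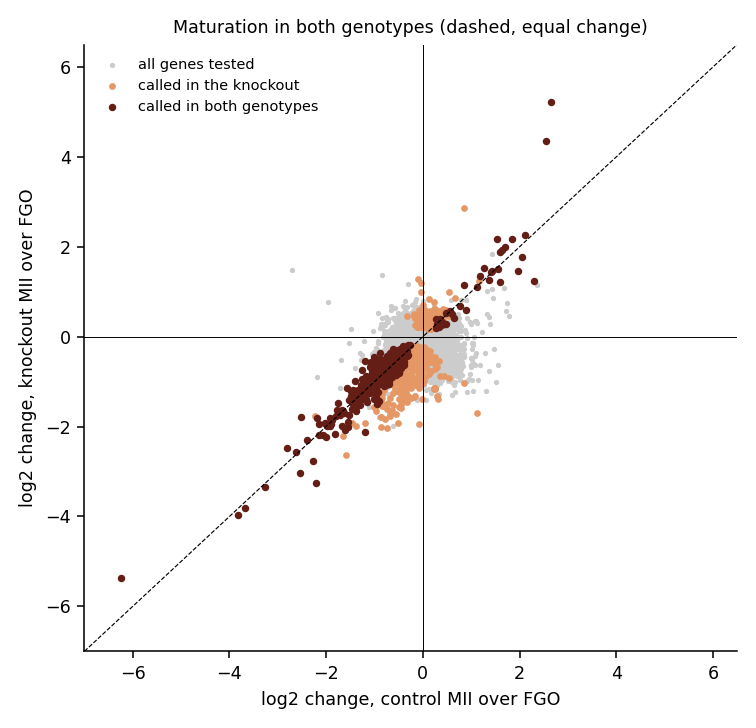
Log2 change from FGO to MII in the knockout (y axis) against that in control (x axis), 1 point per gene tested; dark red, adjusted p under 0.05 in both genotypes, orange, in the knockout, and the dashed line marks equal change. The 385 genes called in both lie in the lower left and upper right, from Bc1 at -5.37 and -6.24 to Gm28438 at 5.23 and 2.65.

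Several of the same lists are set beside their control values. Of the ribosomal protein genes 43 fell and 1 rose in control (median -0.57, against -0.77 in the knockout), of the mitochondrial protein-coding genes 10 rose (median 1.37 against 1.11), and of the nuclear oxidative phosphorylation genes 16 fell and 1 rose. The zona and secreted factors had 5 falls and the subcortical maternal complex 6 falls in control, as in the knockout. Ribosomal protein pseudogenes had a median of -0.17 in control, with 3 falls, against -0.73 in the knockout, or -0.49 without knockout FGO replicate 1. Replication-dependent histones had a median of -0.12 in control, with 3 falls, against -0.49 with 10 falls, or -0.31 with 5 without that library. Small nucleolar and Cajal RNAs had a median of 0.34 in control, against -0.32 in the knockout, or 0.02 without that library. No member of these lists had an interaction that passed the adjusted threshold.

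The smallest adjusted p of the interaction was shared by Gm33370, 2010001K21Rik and Gm42553. Among genes with other names, Ldb1, a cofactor of LIM-domain transcription factors, measured 47.3, 45.3 and 45.7 FPKM in knockout FGO and 49.2, 45.7 and 45.3 FPKM in knockout MII eggs, but 41.1 and 39.2 FPKM in control FGO and 56.2 and 61.9 FPKM in control MII eggs (difference of log2 changes -0.53 ± 0.09 SE, adjusted p = 0.51). Sap18, of a histone deacetylase complex, changed by 0.29 in the knockout and by 1.00 in control, and D8Ertd738e by -0.32 and 0.14. Nudcd3 changed by 0.04 and -0.49, Prr5l by 0.31 and -0.47, and Cfap300 by 0.13 and -0.59, each with an adjusted p of 0.54 for the difference. Ftl1, ferritin light chain, rose in the knockout (16.4 ± 2.22 to 25 ± 1.88 FPKM, adjusted p = 0.0174) with a change of -0.09 in control; 58.4% of its words recur elsewhere and its knockout call was lost without FGO replicate 3 or MII replicate 3 (adjusted p up to 0.0641).

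The level after fertilization places these changes in a longer course. In embryos of knockout mothers sired by B6 males the ribosomal protein genes summed to 2826 ± 151 FPKM in late 1-cell, 1172 ± 49.5 FPKM in early 2-cell and 2753 ± 147 FPKM in late 2-cell embryos (SD, n = 3 each), after 5776 ± 284 FPKM in FGO and 3368 ± 163 FPKM in MII eggs. In control the same genes summed to 5470, 3402, 2146, 1375 and 4941 FPKM on average at the stages from FGO to late 2-cell embryos. The mitochondrial protein-coding genes went on from 4319 ± 165 FPKM in MII eggs to 6025 ± 755, 16325 ± 3233 and 27652 ± 464 FPKM, and the zona and secreted factors from 2595 ± 103 FPKM in MII eggs to 1807 ± 316, 1284 ± 128 and 975 ± 78.1 FPKM. These later differences were not tested here.

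**Figure D5:**
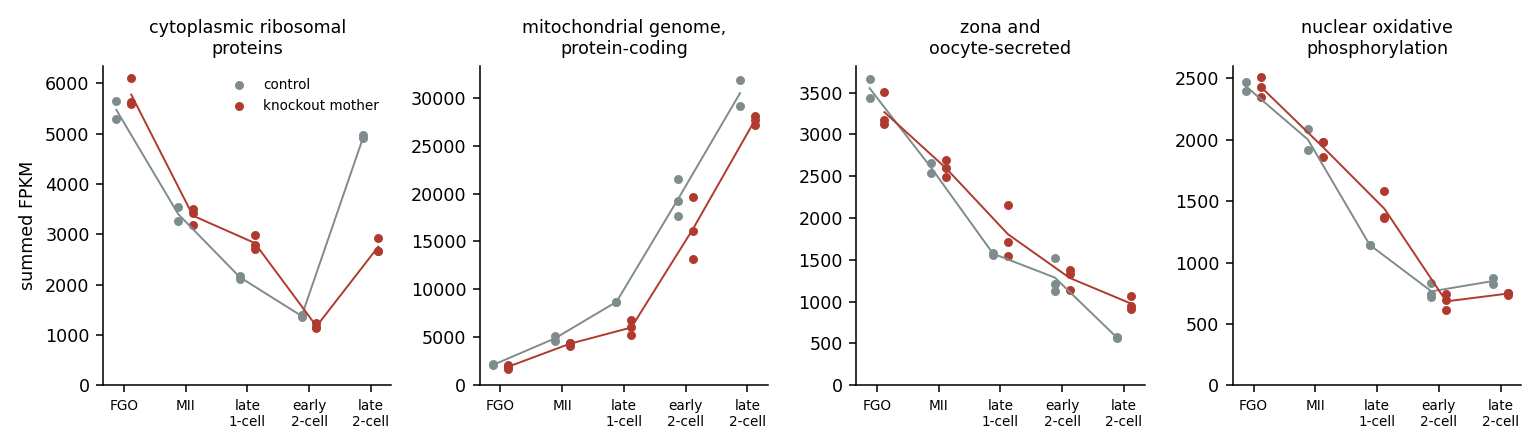
Summed FPKM (y axis) of 4 gene lists in each library from FGO to late 2-cell embryos (x axis), grey for control and red for knockout oocytes and embryos of knockout mothers; lines join group means. From FGO to MII the knockout sum of the ribosomal proteins went from 5776 to 3368 FPKM and that of the mitochondrial protein-coding genes from 1915 to 4319 FPKM.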

How the data were processed

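Total RNA of FGO, eggs and embryos went into libraries by the SMART-Seq Stranded kit, per the labels' protocols. The authors deposited FPKM per gene, 1 column per library, with headers ending in rpkm. The submitters' processing notes name Trim Galore 0.6.6, STAR 2.7.9, StringTie 2.1.7 and mm10, without roles. Depth, annotation, filters and the use of strand in counting are not given in the sources used here, so no counting error is stated and precision rests on 3 (knockout) or 2 (control) libraries per group.

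FPKM were analysed as log2(FPKM + 1), which understates changes of low genes, for genes of at least 1 FPKM in at least 2 of the 10 FGO and MII libraries. The contrasts between groups used limma 3.58.1 (R 4.3.3; eBayes with an intensity trend, Benjamini-Hochberg adjustment within each contrast, threshold 0.05); the 4 groups shared 1 estimate of the spread. The code was tested on simulated data. Alternatives were other pseudocounts, filters, scalings, sets of libraries, no trend, a fold limit, a replicate block and leaving out each library. Symbols come from the deposited table; positions, biotypes and UTRs come from GENCODE M21 (GRCm38), in which 54349 of 55401 identifiers have the same version.

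The comparison, gene lists and rules were chosen with earlier results of these data known. Genes named were the 12 with the largest rise and the 12 with the largest fall (adjusted p under 0.05, no overlap of libraries, at least 5 FPKM in the higher group, no predicted or clone-named models), a set of oocyte genes named whatever their values, up to 2 in each direction per list, and the 3 with the smallest interaction p in each direction; results for some genes are not reported here; ribosomal protein pseudogenes, other members of the lists and the rises outside the mitochondrial genome were added after values were seen.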

Additional observations from a re-analysis of the deposited data

How the results depend on the processing

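Of 90 genes named with a call in the knockout, 48 kept it under every alternative in which they were tested, apart from the 2-fold limit, which was applied to counts only, and none reversed. The number of genes called in the knockout (1315) was 234 with an added 2-fold limit, 796 in a fit of the 6 knockout libraries alone, 633 in a fit of all 26 total RNA libraries, 740 with no filter on low values, and 659 to 1168 when 1 library was left out. The control count (507) was 156 with the 2-fold limit, 232 with 26 libraries and 218 to 635 when 1 library was left out. The interaction, with 0 calls, gave 3 with no filter (Gm20690, Gm23622 and Gm30938), 1 at a pseudocount of 0.1 (Gm47561), 1 at a pseudocount of 5 (Gm33370) and 0 to 3 when 1 library was left out, all of them clone-named or predicted models. The share of rises among the knockout calls was 41.0%, 36.6% with TPM scaling, 48.2% with median centring and 51.8% when only genes averaging 5 FPKM or more were kept. The labels do not say that replicate numbers pair libraries, and deviations of same-numbered knockout FGO and MII libraries correlated at 0.22, -0.13 and 0.27, so the numbers are not taken as pairs; with the replicate number within genotype as a block 1047 genes were called in the knockout, 388 in control and 0 in the interaction. The depth of the libraries is unknown, and with 2 control libraries per stage a difference between genotypes could be missed.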

Other observations

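Unnamed and non-coding models are set against the 4.49% of all genes tested that rose and the 6.46% that fell. Of 869 processed pseudogenes tested 98 fell and 4 rose, with a median log2 change of -0.44. Of 474 long intergenic RNAs 17 fell and 14 rose, with a median of 0.07. Both sets of values include knockout FGO replicate 1, in which ribosomal protein pseudogenes were high, and are not given without it. Of 197 short non-coding RNA models, mitochondrial tRNA included, 14 rose and 3 fell (8.63% called, against 10.9% of all genes). The mitochondrial tRNA genes made up 12 of these rises. Without knockout FGO replicate 1 the counts for the 197 models were 20 and 1. Small nucleolar and Cajal RNAs had 1 rise and 1 fall among 26 tested (7.69%), a median of -0.32 with that library and of 0.02 without it. Gm23935, the model with the highest FPKM, held 19309, 25322 and 21528 FPKM in knockout FGO and 26430, 26092 and 20973 FPKM in knockout MII eggs, and was not called (adjusted p = 0.536).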
